A study of Cicer arietinum with 24 samples.

Results

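Gene expression in chickpea seeds of stage S7 was compared with that in seeds of stage S6, in the small-seeded cultivar Himchana 1. S7 is the late-maturation stage, and S6 is the seed stage that comes just before it. Whole seeds of untreated, field-grown plants were used at both stages, with 3 biological replicates for S7 and 3 for S6, which makes 6 of the 24 samples of the series. The other samples are seed stages S1 to S5 (S1, S2 and S3 are early-, mid- and late-embryogenesis, and S5 is mid-maturation) and leaves, all of the same cultivar. The deposited table holds 1 merged FPKM value (fragments per length of exon, scaled to the number of mapped fragments) for each stage, so each stage is a single value without error. No test was possible, and each difference below compares the 2 merged libraries only. Genes are given by their Ca_ identifiers, and of 25111 genes with a locus of their own, the 12156 listed at 1 FPKM or more at S7 or S6 were compared. The change is log2 of (S7 FPKM + 1) over (S6 FPKM + 1), which understates differences of genes with low values, and a gene was counted from a 2-fold difference on this scale.

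During seed maturation the embryo of a legume stops dividing, fills its cotyledons with storage proteins, starch and lipid, and then loses water. Late in this program, genes for storage reserves are commonly switched down, while transcripts for protective proteins and for germination are kept in the drying seed. Transcripts of a dry seed may be stored rather than in use, and RNA sequencing measures their level only.

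The 75th percentile of FPKM over loci lay between 10.7 and 11.7 in the 8 libraries. The summed FPKM over genes was 2100741 at S7 and 1987712 at S6. A few genes took much of it, with 33.0% of the sum in the 10 highest genes at S7 and 19.4% at S6. Of the S7 sum, 16.3% was Ca_06877 and 4.98% was Ca_21122, and both were listed at 0 at S6, which can be a failed estimate. How far these zeros set the difference between the shares was not tested. Depth is unknown, because FPKM values hold no counts. The identifiers have no gene names in the sources used here apart from the genes named in the study, so the seed tissues could not be checked against marker genes. In whole seeds, fewer cells of a type and less RNA per cell cannot be told apart.

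Most genes were listed at nearly the same level at S7 and S6. Of the 12156 genes, 8722 (71.8%) were within 1.5-fold, and the median change was -0.02 with quartiles of -0.40 and 0.33. At S7, 310 genes were at least 2-fold higher than at S6, which is 2.55% of the genes compared, and 799 were at least 2-fold lower, which is 6.57%. Together they made 9.12% of the genes compared, against 11.4% between S2 and S1, 19.1% between S3 and S2, 7.82% between S4 and S3, 25.9% between S5 and S4 and 59.5% between S6 and S5, a step that shares the S6 library. Among genes above 0 at both stages, 11 were at least 4-fold higher at S7 and 136 at least 4-fold lower. With genes listed at 0 at 1 stage these counts were 22 and 146.

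The excess of lower genes held under the planned scalings but not under every scaling tried. Of the genes past 2-fold, 28.0% were higher at S7 on the deposited scale. With the same sum over all genes, 173 were higher and 667 lower. Scaling by the upper quartile of genes above 0 gave 210 and 803, and scaling by the median ratio of genes gave 267 and 729. When both stages were set to the same sum over genes above 0 at both stages, a scaling chosen after seeing the data, 832 genes were higher and 510 lower, so that 62.0% were higher, and the median of all genes moved to 0.25. Over the genes above 0 at both stages the summed FPKM was lower at S7, with a log2 ratio of -0.30. Which scaling reflects the RNA content of the seeds was not tested, so directions below are relative to the deposited scale.

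At the edge of the 2-fold limit, Ca_26840 was counted as higher with 10.1 FPKM at S7 and 4.54 FPKM at S6, whereas Ca_17573 with 1.71 and 0.356 FPKM was not. On the other side, Ca_19295 was counted as lower with 0.166 FPKM at S7 and 1.33 FPKM at S6, and Ca_05907 with 211 and 423 FPKM was not.

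**Figure D1:**
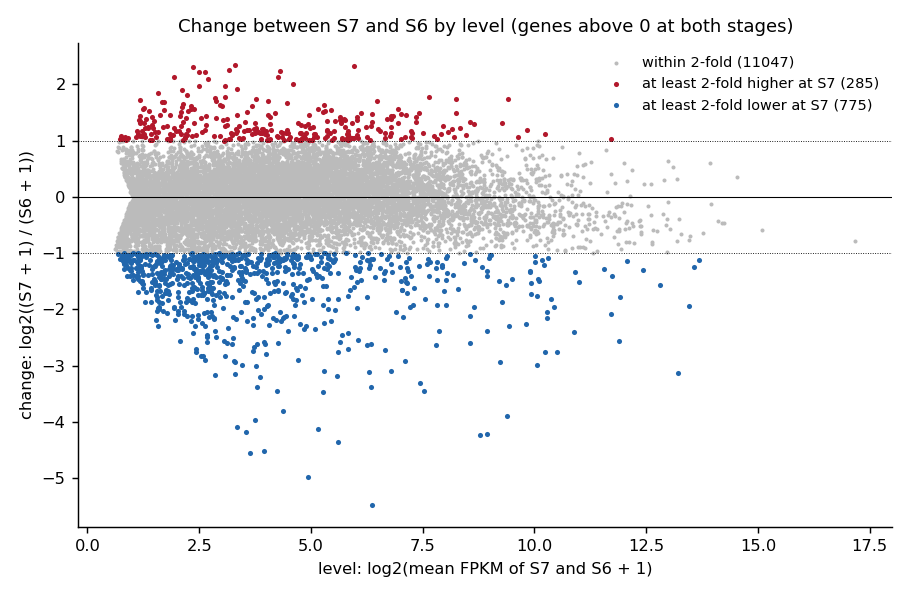
Change between S7 and S6 (y axis, log2 of the ratio of FPKM + 1, positive when higher at S7) against level (x axis, log2 of the mean FPKM of both stages + 1) for the 12107 genes above 0 at both stages, 1 point per gene. Of these, 285 lay at or above the upper dotted line of 2-fold and 775 at or below the lower one, and points on the lower side reach farther from 0 than those on the upper side.

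Among genes above 0 at both stages, 285 of 12107 (2.35%) were at least 2-fold higher at S7 and 775 (6.4%) at least 2-fold lower. The share of lower genes varied with the level. It was 9.63% of these genes at a mean of 3 to 10 FPKM, 3.46% at 30 to 100 FPKM and 10.3% at 1000 FPKM or more. In the last class the median change was -0.38.

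The largest differences included genes listed at 0 at 1 stage, and since an exact 0 among these files can be a failed estimate, no fold is given for them. Ca_06877 was listed at 343368 FPKM at S7, which was 16.3% of the sum over genes there, and at 0 at S6, with 1148 FPKM at S5 and 0 again at S3. Ca_21122 was listed at 104716 FPKM at S7 and at 0 at S6, with 7763 FPKM at S5. Ca_06965 had 12691 FPKM at S7 and Ca_06966 had 9640 FPKM, and both were listed at 0 at S6 and at S5. In these 4 genes the S7 value was thus the highest of the 8 libraries, beside a 0 in S6.

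Further genes of this kind were Ca_07751 (5688 FPKM at S7), Ca_04570 (3759 FPKM), Ca_27688 (3159 FPKM) and Ca_25699 (2360 FPKM), all listed at 0 at S6 and S5. Ca_07751 and Ca_04570 stood far above every other library, where they did not exceed 8.67 and 8.73 FPKM, while Ca_27688 had 156 to 466 FPKM and Ca_25699 199 to 431 FPKM in leaf and at S1, S2 and S4. In the opposite direction, Ca_06335 was listed at 0 at S7 and at 3379 FPKM at S6. Ca_06333 was listed at 0 at S7 and 1056 FPKM at S6, and Ca_06337 at 0 at S7 and 257 FPKM at S6. All 3 were above 0 in each of the other 7 libraries, from 2.34 FPKM upwards. In all, 25 of the 310 higher genes and 24 of the 799 lower genes were listed at 0 at 1 stage.

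Exact zeros of abundant genes were also found in the other libraries. Genes listed at 0 in a library but at 1000 FPKM or more in another numbered 15 at S7, 21 at S6, and between 4 and 23 in the other 6 libraries.

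Among genes at 1 FPKM or more at both stages, a set taken after the values were seen, the 8 largest changes in each direction were as follows. Ca_12656 had 15.5 FPKM at S7 and 2.24 FPKM at S6 (log2 change 2.35), and no more than 0.354 FPKM in any other library. Ca_10704 had 102 FPKM at S7 and 19.7 FPKM at S6 (2.32), with 46.9 FPKM in leaf. Ca_25126 was listed at 0 in leaf and at S1 to S5, and had 30.3 FPKM at S7 and 6.13 FPKM at S6 (2.14). The levels of these genes were modest, and 3 of the 8 (Ca_12656, Ca_25126 and Ca_07243) were at 1.24 FPKM or less in every library other than S7 and S6. Ca_07243 itself had 9.51 FPKM at S7 and 1.45 FPKM at S6 (2.10). The other 4, Ca_00025, Ca_16333, Ca_23815 and Ca_15453, had between 9.25 and 37.7 FPKM at S7 and between 1.19 and 8.63 FPKM at S6, with changes of 2.01 to 2.25.

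The largest changes to lower values at S7 were wider, and these genes had higher levels. Ca_01746 had 2.62 FPKM at S7 and 160 FPKM at S6 (log2 change -5.48), and 3737 FPKM at S5. Ca_03195 had 3.53 FPKM at S7 and 92.1 FPKM at S6 (-4.36), and Ca_13547 had 43.5 FPKM at S7 and 839 FPKM at S6 (-4.24). Both were at 2.10 FPKM or less in leaf and at S1 to S4, while at S5 Ca_03195 had 52.8 FPKM and Ca_13547 had 222 FPKM.

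Ca_18356 had 49.0 FPKM at S7 and 932 FPKM at S6 (-4.22), after 11529 FPKM at S5. Ca_08187 had 1.77 FPKM at S7 and 37.8 FPKM at S6 (-3.81), after 1213 FPKM at S5. For these genes and Ca_01746, S5 held the highest of the 8 values. In contrast, Ca_01178 had 83.7 FPKM at S7 and 1262 FPKM at S6 (-3.90) and was listed at 0 at S5. Ca_13970 had 2.85 FPKM at S7 and 66.2 FPKM at S6 (-4.13), and Ca_12342 had 5.35 FPKM at S7 and 69.5 FPKM at S6 (-3.47). In these 3 genes S6 was the highest library.

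Another 3 of the genes with the largest negative changes were near 0 at S7. Ca_23991 had 0.883 FPKM at S7 and 58.7 FPKM at S6 (-4.99), Ca_24085 had 0.0123 and 22.8 FPKM (-4.56), and Ca_21847 had 0.289 and 28.7 FPKM (-4.53). They shared a profile in which leaf, S2, S4 and S6 were all high and S1, S3, S5 and S7 all low. This was seen after the values were known. Ca_23991 had 63.7, 11.4, 330 and 58.7 FPKM in leaf, S2, S4 and S6, and at most 1.40 FPKM in S1, S3, S5 and S7. A gene in which every one of leaf, S2, S4 and S6 was at least 2-fold above every one of S1, S3, S5 and S7 was found 6 times, and the opposite 0 times. The pattern itself sets S6 above S7, so each of them is also lower at S7. The other members were Ca_00243, Ca_17327 and Ca_21899. For these 6 genes the S7 and S6 values follow the alternation of libraries, and its part in the difference was not tested.

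Ca_16651 stood farthest below its other libraries among genes above 0 at both stages. It had 0.230 FPKM at S7 and 21.3 FPKM at S6 (-4.18), and 26.0 to 61.9 FPKM in leaf and at S1 to S5.

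**Figure D2:**
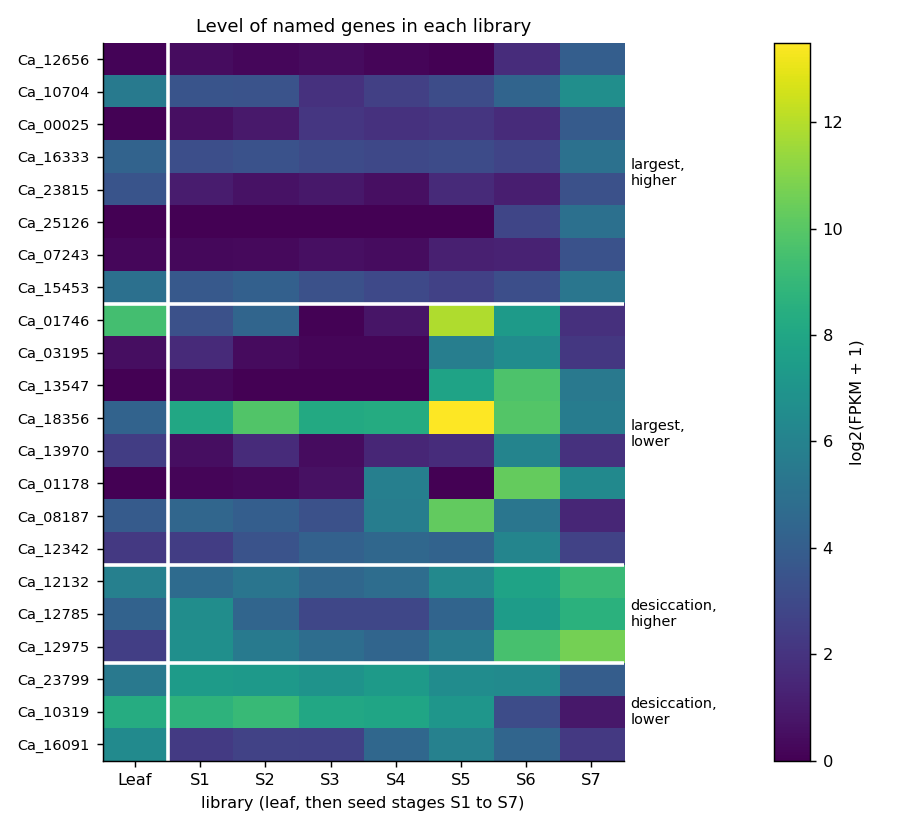
Level in each of the 8 libraries (columns: leaf, then S1 to S7) of the 8 genes with the largest positive and the 8 with the largest negative change among genes at 1 FPKM or more at both stages, and of the 3 largest in each direction of the desiccation list (rows), as log2(FPKM + 1) on the colour scale. Ca_01746, Ca_18356 and Ca_08187 are brightest at S5, whereas Ca_12656 and Ca_25126 are dark in every library before S6.

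The most abundant genes also tended to be lower at S7. Ca_28211, the highest gene at S6, had 108888 FPKM at S7 and 188664 FPKM at S6 (log2 change -0.79), after 663915 FPKM at S5. Ca_13501 had 27737 FPKM at S7 and 41651 FPKM at S6 (-0.59), Ca_22419 had 15795 and 21862 FPKM (-0.47), and Ca_04846 had 16428 and 22603 FPKM (-0.46). Ca_12525 differed in the other direction, with 26686 FPKM at S7 and 20824 FPKM at S6 (0.36), and it was at 104 FPKM or less in leaf and at S1 to S5. None of these 5 genes reached 2-fold.

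Of 347 genes at 1000 FPKM or more at S7 or S6, 336 were above 0 at both stages. Of these, 5 were at least 2-fold higher at S7 and 39 at least 2-fold lower, and the median change was -0.38, against -0.02 for all genes compared. Under the scaling to the same sum over genes above 0 at both stages the counts were 18 higher and 29 lower, and the median was -0.08, against 0.25 for all genes. A gene can reach 1000 FPKM through its higher stage alone, as Ca_01178 did at S6. These counts, and those of the sets of abundant genes below, are therefore not free of the call.

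The lower abundant genes were mostly those with little expression in leaf, a library the comparison did not use. Of 62 abundant genes under 1 FPKM in leaf, 24 were at least 2-fold lower at S7 and 1 was higher, with a median change of -0.87. Of 274 abundant genes at 1 FPKM or more in leaf, 15 were lower and 4 higher, with a median of -0.33. Ca_06213 had 1941 FPKM at S7 and 16949 FPKM at S6 (-3.13), and was listed at 0 in leaf and at S5. Ca_04583 had 7224 FPKM at S7 and 17242 FPKM at S6 (-1.25), and Ca_12606 had 8230 FPKM at S7 and 17985 FPKM at S6 (-1.13). These 3 were under 1 FPKM in leaf. Ca_18289 had 4684 FPKM at S7 and 17906 FPKM at S6 (-1.93), and 10.8 FPKM in leaf. With the same sum over genes above 0 at both stages, 17 were lower and 3 higher among genes under 1 FPKM in leaf, and the direction turned, to 12 lower and 15 higher, among those at 1 FPKM or more in leaf.

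These seed genes were already present at mid-maturation in most cases. Of the 24 lower genes under 1 FPKM in leaf, 22 exceeded their S4 level at least 2-fold at S5, as did 57 of all 62 abundant genes under 1 FPKM in leaf. Among the 24 lower genes the highest library of the 8 was S6 in 17 and S5 in the other 7, but the S6 value is part of the call. Among all 62 it was S6 in 42, S5 in 11 and S7 in 9. Ca_26950 had 10225 FPKM at S5, then 2532 FPKM at S6 and 375 FPKM at S7. Ca_01856 had 7976 FPKM at S5, 6502 FPKM at S6 and 1103 FPKM at S7. In Ca_08825, S6 was the highest stage, with 2582 FPKM at S5, 3209 FPKM at S6 and 602 FPKM at S7. Ca_21274, on the differentiation list, had 637 FPKM at S5, 10804 FPKM at S6 and 3658 FPKM at S7.

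Abundant genes at least 2-fold higher at S7 numbered 5, with Ca_12975 described below among the desiccation genes. Ca_01840 had 4513 FPKM at S7 and 2224 FPKM at S6 (1.02), Ca_18000 had 1264 and 556 FPKM (1.18), and Ca_25602 had 1039 and 312 FPKM (1.73). Ca_10947 had 1080 FPKM at S7 and 517 FPKM at S6 (1.06). Each of these 4 genes was higher at S7 than in any other library, as were 79.7% of all 310 higher genes. The S7 value is part of the call.

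Libraries outside the comparison were then set beside the genes called. The 310 higher genes had a median of 20.4 FPKM at S7 and 6.88 FPKM at S6, and medians between 2.99 and 4.25 FPKM in leaf and at S1 to S5. S7 was the highest of the 8 libraries in 247 of them (79.7%), and the same held for 3535 of all 12156 genes (29.1%), but the S7 value is part of the call. Measured only over the 6 libraries not used, 44 of the 310 (14.2%) were under 1 FPKM in all, against 1.91% of all genes compared. This contrast is not free of the call either. Of the 310, 74 (23.9%) were under 1 FPKM at S6 and entered the comparison through S7 alone, against 2.57% of all genes compared.

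The 799 lower genes had a median of 3.03 FPKM at S7 and 11.6 FPKM at S6. Their median was highest at S5, with 26.7 FPKM, after 16.8 FPKM at S4, while the median of all genes compared was 13.8 FPKM at S5 and 13.1 FPKM at S4. At S5, 263 of the 799 (32.9%) exceeded their S4 level at least 2-fold, against 12.0% of all genes compared and 12.6% of the higher genes. Another 103 of the 799 (12.9%) were below their S4 level by at least 2-fold, against 7.80% of all genes compared and 13.9% of the higher genes. Among leaf and S1 to S5, S5 was the highest library for 302 of the lower genes (37.8%), against 23.1% of all genes. These contrasts are not free of the call. Of the 799, 204 (25.5%) were under 1 FPKM at S7 and entered the comparison through S6 alone, against 5.25% of all genes compared.

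**Figure D3:**
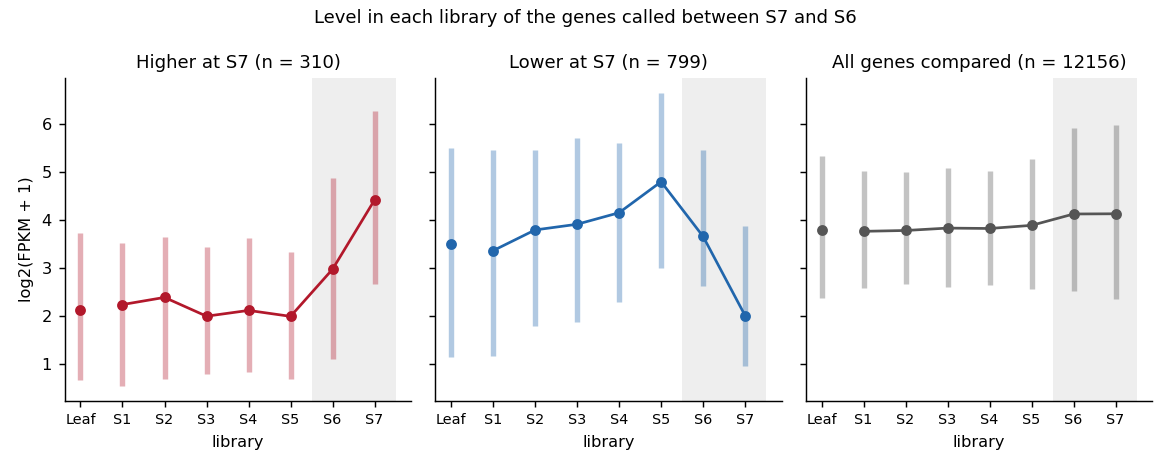
Median (points) and quartiles (bars) of log2(FPKM + 1) in each library for the 310 genes at least 2-fold higher at S7, the 799 at least 2-fold lower and all 12156 genes compared, with S6 and S7 shaded. The lower genes have their highest median at S5, with 26.7 FPKM, and the higher genes stay between 2.99 and 4.25 FPKM until S5.

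Genes under 1 FPKM in leaf passed 2-fold more often in both directions. Of 1115 genes under 1 FPKM in leaf, 96 (8.61%) were higher at S7 and 184 (16.5%) lower. Among 4165 genes at 1 to 10 FPKM in leaf, 130 (3.12%) were higher and 213 (5.11%) lower. At 10 to 100 FPKM in leaf, 69 of 5545 genes (1.24%) were higher and 280 (5.05%) lower. Of 1331 genes at 100 FPKM or more in leaf, 15 (1.13%) were higher and 122 (9.17%) lower, with a median change of -0.30. Among all genes compared the shares were 2.55% and 6.57%. A gene can enter the comparison through 1 stage alone, as did 313 genes at 1 FPKM or more at S7 only and 638 at S6 only. How many of these each leaf class held was not counted, so the shares are not free of the call.

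Gene lists used here were those of the study, 5 for processes of seed development and 1 for genes within known seed size and weight QTLs, restricted to genes with a change of DNA methylation or of expression. S7 and S6 of Himchana 1 were not among the samples that chose them. However, the study compared successive stages of its large-seeded cultivar, S7 against S5 among them. It also compared both cultivars at S3 and S5, with the RNA data of Himchana 1. The lists are therefore not independent of late maturation or of the S3 and S5 libraries shown here. How far this choice set the list results below was not tested. Members of 2 lists can overlap, and 77 genes are on both the cell cycle and the differentiation list.

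Genes assigned to desiccation, the loss of water, had the largest share of lower genes of the 6 lists. Of 162 listed genes, 156 had a locus of their own, 47 of these were under 1 FPKM at both stages, and 109 were compared. At S7, 17 were at least 2-fold lower (15.6%, against 6.57% of all genes compared) and 3 at least 2-fold higher (2.75%, against 2.55%). The median change was -0.15, with quartiles of -0.65 and 0.24. Under the scaling to the same sum over genes above 0 at both stages, 11 were lower (10.3%, against 4.21% of all genes) and 6 higher (5.61%, against 6.86%), and the median turned to 0.16, still under the 0.25 of all genes. On the deposited scale, 101 listed genes were at 1 FPKM or more at both stages. Of these, 12 were lower (11.9%, against 5.31% of all such genes) and 3 higher (2.97%, against 2.11%). Their median was -0.06, against -0.006.

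The lower desiccation genes covered a wide range of levels, from 0.556 to 1094 FPKM at S7 and from 2.62 to 2763 FPKM at S6. The most abundant was Ca_05125, with 1094 FPKM at S7 and 2763 FPKM at S6 (log2 change -1.34), after 2423 FPKM at S5 and no more than 10.1 FPKM at S1 to S4. Ca_23799 had 14.8 FPKM at S7 and 86.2 FPKM at S6 (-2.47), and was above 95 FPKM at each of S1 to S5. Ca_10319 had 0.796 FPKM at S7 and 7.87 FPKM at S6 (-2.30), and 137 to 544 FPKM at S1 to S5. Ca_16091 had 3.74 FPKM at S7 and 20.2 FPKM at S6 (-2.16), and 59.4 FPKM at S5.

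The lower desiccation genes did not share 1 profile. The highest library was leaf in 5 of the 17, a stage from S1 to S4 in 6, S5 in 2 and S6 in 4. Ca_11028 was highest at S6, with 247 FPKM at S7 and 500 FPKM at S6 (-1.02), and so was Ca_06899, with 65.7 and 217 FPKM (-1.71). Ca_18347 was highest in leaf with 709 FPKM, and had 0.856 FPKM at S7 and 5.34 FPKM at S6 (-1.77).

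The 3 higher desiccation genes were at 396 to 1660 FPKM at S7 and had their highest level of the 8 libraries at S7. The S7 value is part of the call, and S7 was the highest library in 79.7% of all 310 higher genes. Ca_12975 had 1660 FPKM at S7 and 765 FPKM at S6 (log2 change 1.12), and at most 105 FPKM elsewhere. Ca_12132 had 564 FPKM at S7 and 230 FPKM at S6 (1.29), and at most 81.7 FPKM elsewhere. Ca_12785 had 396 FPKM at S7 and 172 FPKM at S6 (1.20), and at most 96.3 FPKM elsewhere. All 3 kept this call under every alternative scaling tried.

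Genes assigned to grain filling, the deposition of reserves, differed little as a list. Of 188 listed genes, 173 had a locus of their own and 115 were compared. At S7, 9 were at least 2-fold lower (7.83%, against 6.57% of all genes compared) and 3 higher (2.61%, against 2.55%), so both shares were near the background, and the median was -0.01. The scaling to the same sum over genes above 0 at both stages turned the direction, to 4 lower (3.51%, against 4.21% of all genes) and 12 higher (10.5%, against 6.86%). Ca_23419 had 1.56 FPKM at S7 and 10.6 FPKM at S6 (-2.18), Ca_00956 had 2.63 and 8.30 FPKM (-1.36), and Ca_12683 had 56.7 and 143 FPKM (-1.32). The most abundant lower gene was Ca_02432, with 139 FPKM at S7 and 311 FPKM at S6 (-1.15), and it was at 1.32 FPKM or less in leaf and at S1 to S5.

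Of the higher grain filling genes, Ca_07751 is the gene listed at 0 at S6 and 5688 FPKM at S7. Ca_06799 had 63.8 FPKM at S7 and 21.2 FPKM at S6 (1.54), but its highest value was 150 FPKM in leaf. Ca_08317 had 3.92 FPKM at S7 and 1.28 FPKM at S6 (1.11), and was under 0.05 FPKM elsewhere. Its call was lost when values were scaled by the sum (0.80) or the upper quartile (0.94).

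Cell cycle genes had few members past 2-fold between S7 and S6. Of 358 genes with a locus of their own, the share under 1 FPKM was 20.1% at S1, 33.5% at S5, 45.5% at S6 and 45.5% at S7, while that of all genes was 45.4%, 46.2%, 52.8% and 54.1% at the same stages. Of the list, the upper quartile was 12.2 FPKM at S7 and 12.1 FPKM at S6. Of the 204 genes compared, 3 were at least 2-fold lower at S7 (1.47%, against 6.57% of all genes compared) and 5 higher (2.45%, against 2.55%), and the median was 0.10. These counts depended on the pseudocount. With 0.1 FPKM in place of 1, 10 were lower (4.90%, against 10.1% of all genes) and 9 higher (4.41%, against 3.97%). Among the alternative scalings the counts were 3 lower and 3 higher by the sum or the upper quartile, and 1 lower (0.493%, against 4.21% of all genes) and 11 higher (5.42%, against 6.86%) by the sum over genes above 0 at both stages.

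Ca_08772, on the cell cycle list, had 327 FPKM at S7 and 150 FPKM at S6 (log2 change 1.12), and at most 50.9 FPKM elsewhere. Ca_14504 had 5.15 FPKM at S7 and 1.27 FPKM at S6 (1.44), and Ca_12942 had 7.92 FPKM at S7 and 2.70 FPKM at S6 (1.27). All 5 higher genes of the list, with Ca_22873 (106 FPKM at S7 and 52.4 FPKM at S6) and Ca_20485 (72.8 and 35.1 FPKM), were highest at S7 of the 8 libraries. So were 79.7% of all 310 higher genes, and the S7 value is part of the call. On the lower side, Ca_05191 had 336 FPKM at S7 and 687 FPKM at S6 (-1.03), and Ca_02329 had 12.5 and 27.7 FPKM (-1.09). Neither passed 2-fold with the same sum over genes above 0 at both stages (-0.73 for Ca_05191 and -0.81 for Ca_02329). Ca_21899 was listed at 0 at S7 and at 9.70 FPKM at S6, and is 1 of the 6 genes with the alternating profile.

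Cell growth genes, 195 in the list and 101 compared, included 5 at least 2-fold lower at S7 (4.95%, against 6.57% of all genes compared) and 2 higher (1.98%, against 2.55%), with a median of 0.03. After the scaling to the same sum over genes above 0 at both stages 3 were lower (2.97%, against 4.21% of all genes) and 9 higher (8.91%, against 6.86%), whereas 3 were lower and 0 higher with the same sum over all genes. Ca_02952 had 3.88 FPKM at S7 and 1.03 FPKM at S6 (1.27, and 0.91 with the same sum over all genes, under 2-fold), and Ca_00956, also on the grain filling list, had the largest negative change. Of the 5 lower genes, 4 were below their S4 level by at least 2-fold at S5, against 12.9% of all 799 lower genes. These 5 genes are also on the differentiation list.

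Differentiation genes, 775 in the list and 460 compared, included 27 lower (5.87%, against 6.57% of all genes compared) and 7 higher (1.52%, against 2.55%), with a median of 0.09. The same sum over genes above 0 at both stages gave 16 lower (3.49%, against 4.21%) and 40 higher (8.73%, against 6.86%). Ca_01522 had 0.436 FPKM at S7 and 9.26 FPKM at S6 (-2.84), and 64.8 to 118 FPKM at S1 to S5. Ca_01326 had 5.64 FPKM at S7 and 1.13 FPKM at S6 (1.64), and 8.78 FPKM at S1. Some of the lower genes were above 1000 FPKM at both stages, such as Ca_03732, with 1272 FPKM at S7 and 5426 FPKM at S6 (-2.09), and Ca_12895, with 3180 and 7797 FPKM (-1.29). Both were under 1 FPKM in leaf.

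Genes within seed weight QTLs (regions of the genome linked to the weight of seeds) followed the background. Of 1027 listed genes, 610 were compared. At S7, 40 were at least 2-fold lower (6.56%, against 6.57% of all genes compared) and 14 higher (2.3%, against 2.55%), and the median was 0.01. The same sum over genes above 0 at both stages gave 25 lower (4.07%, against 4.21%) and 40 higher (6.51%, against 6.86%). The largest negative change was that of Ca_01746, given above, and the largest positive change among genes above 0 at both stages was that of Ca_11073, with 20.1 FPKM at S7 and 5.34 FPKM at S6 (1.73). Ca_04570 is the gene listed at 0 at S6 and 3759 FPKM at S7.

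**Figure D4:**
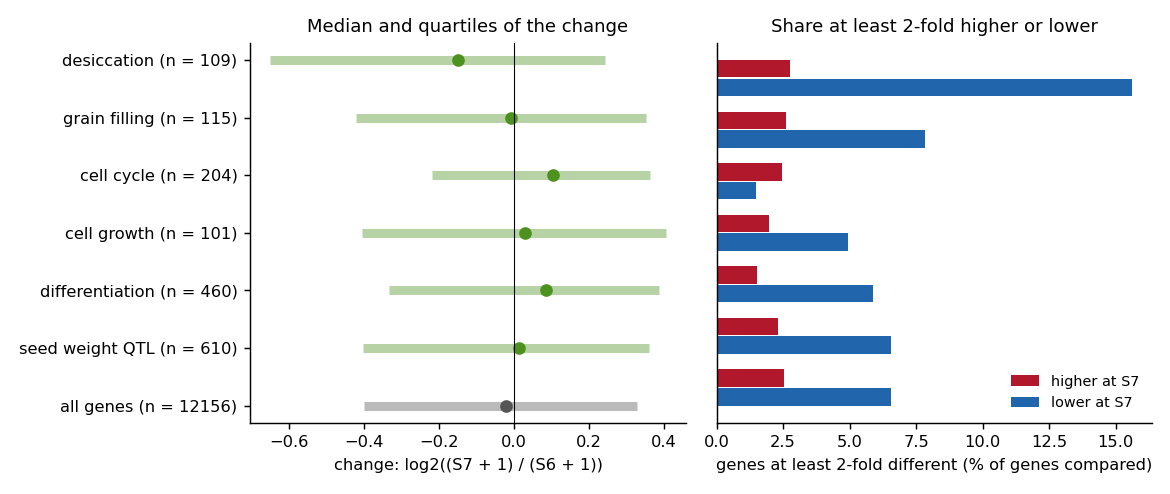
Median (points) and quartiles (bars) of the change between S7 and S6, as log2 of the ratio of FPKM + 1, for 6 gene lists and all genes compared (left), and share of genes at least 2-fold higher (red) or lower (blue) at S7, in % of the genes compared (right). The desiccation list has 15.6% lower genes, against 6.57% of all genes, and the cell cycle list 1.47%.

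Of the 25 genes that the study names singly, 10 were under 1 FPKM at both stages and 15 were compared. Of these 15, 0 were at least 2-fold different between S7 and S6, beside 9.12% of all genes compared, a share at which few would be found among 15. DNA methyltransferases add methyl groups to cytosine, with MET1 keeping CG methylation, chromomethylases (CMT) keeping CHG and CHH methylation, and DRM enzymes placing new methylation, as known from Arabidopsis. CaDRM1 (Ca_12577) had 10.7 FPKM at S7 and 9.35 FPKM at S6 (0.18), and CaDRM2 (Ca_03062) had 15.9 FPKM at S7 and 19.6 FPKM at S6 (-0.29). CaMET1 (Ca_18432), CaCMT1 (Ca_20580), CaCMT2 (Ca_17866) and CaCMT3 (Ca_23587) were under 1 FPKM at both stages. CaCMT3 was listed at 0.0499 FPKM at S7 and 0 at S6, after 31.7 FPKM at S1, and CaCMT1 at 0.212 and 0.439 FPKM, after 14.9 FPKM at S5. The DRM genes were thus the only members of this family above 1 FPKM in late seeds.

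DNA demethylases remove methylated cytosines by base excision. Ca_20137 was the highest of the 6, with 42.3 FPKM at S7 and 29.6 FPKM at S6 (0.50), and Ca_08414 had 9.05 FPKM at S7 and 5.97 FPKM at S6 (0.53). For both, S7 was the highest of the 8 libraries. Ca_17547 had 5.63 FPKM at S7 and 9.31 FPKM at S6 (-0.64), after 37.5 FPKM at S5. Ca_17329 had 0.766 FPKM at S7 and 2.45 FPKM at S6 (-0.97), after 10.2 FPKM at S5, and Ca_17326 had 0.630 FPKM at S7 and 1.72 FPKM at S6 (-0.74). With a pseudocount of 0.1 FPKM in place of 1 the last 2 passed 2-fold, at -1.56 and -1.32. Ca_07031 was under 1 FPKM at both stages.

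Genes of DNA replication include CDC6 and the minichromosome maintenance (MCM) genes, whose products act at the start of DNA replication. The CDC6 gene Ca_15618 was under 1 FPKM at both stages, after 8.03 FPKM at S1. The MCM gene Ca_09549 had 6.14 FPKM at S7 and 4.07 FPKM at S6 (0.50), after 46.5 FPKM at S1, and Ca_15408 had 1.61 FPKM at S7 and 0.981 FPKM at S6 (0.40). Another MCM gene, Ca_12014, was under 1 FPKM at both stages. No member was therefore at least 2-fold different.

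Hormone and regulator genes complete the named set. GH3 enzymes conjugate auxin to amino acids, and the GH3 gene Ca_06937 had 101 FPKM at S7 and 75.8 FPKM at S6 (0.41), after 51.0 FPKM at S5 and 3.04 FPKM or less before. The other GH3 gene, Ca_23631, was under 1 FPKM at both stages, after 120 FPKM at S2. Ca_01760, an F-box gene (F-box proteins choose targets for ubiquitin ligases), had 127 FPKM at S7 and 94.9 FPKM at S6 (0.42). S7 was the highest of the 8 libraries for Ca_06937 and Ca_01760.

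Ca_14780, an ARR-B gene (type B response regulators act in cytokinin signalling in Arabidopsis), had 1.33 FPKM at S7 and 3.42 FPKM at S6 (-0.93), and passed 2-fold with a pseudocount of 0.1 FPKM (-1.30). The homeobox gene Ca_04491 had 2.68 FPKM at S7 and 4.76 FPKM at S6 (-0.65), and Ca_09238, which encodes a dof zinc finger factor, had 2.76 FPKM at S7 and 4.48 FPKM at S6 (-0.55). Ca_09981, with an RNA recognition motif, had 7.10 FPKM at S7 and 5.12 FPKM at S6 (0.40). The auxin response factor gene Ca_10748 and the C3HC4-type zinc finger gene Ca_09815 were under 1 FPKM at both stages, after 53.0 and 20.3 FPKM at S1.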

How the data were processed

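RNA of whole seeds (S1 to S7) and leaves of Himchana 1 was extracted with TRI reagent, and libraries were made with an Illumina mRNA-Seq kit. Per the labels, reads were quality-filtered (NGS QC Toolkit), TopHat was used for mapping to the chickpea genome and Cufflinks for FPKM. The genome build for the RNA reads and the way replicates were merged are not given in the sources used here. The values deposited by the authors are FPKM, with 1 value for each stage and locus (35234 loci), so no replicate could be compared, tested or left out.

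Loci with 1 identifier were used (26305 loci for 25111 genes), and the loci of 1168 genes with several loci were summed. The 1661 loci that join identifiers were used only in an alternative, and 7268 loci without an identifier were kept apart. The change was log2((S7 + 1)/(S6 + 1)), over genes at 1 FPKM or more in either stage, counted at 2-fold. Ratios of low values showed no common step between the stages, so depth could not be recovered. The counting was tested on simulated data.

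The gene lists are those of the study for seed processes and seed weight QTLs, and its named genes. Genes named singly are the 8 largest changes in each direction, the 5 highest at each stage, the 3 largest in each direction of the desiccation, grain filling and cell cycle lists and the largest of the other 3 lists, the 3 genes farthest above and below the other 7 libraries, and those the study names. Since genes listed at 0 led the first set, the largest at 1 FPKM or more at both stages were added, and some abundant genes and list members were also named after their values were seen. The members and lists were chosen with earlier results of these data known. None of the identifiers matched a RefSeq table (29938 genes of the assembly Cicar.CDCFrontier_v2.0), so no coordinates or sequences are given. The 13 alternatives were pseudocounts, minimum levels, 4 scalings, the treatment of loci and leaving out genes listed at 0. The last of these and the scaling to the same sum over genes above 0 at both stages were chosen after seeing the data. Python 3.11.15, numpy 2.4.6, pandas 2.3.3 and matplotlib 3.10.9 were used.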

Additional observations from a re-analysis of the deposited data

Results flagged for a closer look

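Loci without a gene identifier stood outside the gene values and were compared in the same way. Of 1867 such loci at 1 FPKM or more at S7 or S6, 213 (11.4%) were at least 2-fold higher at S7 and 224 (12.0%) at least 2-fold lower, against 2.55% and 6.57% of the genes. Their levels were lower than those of the genes, with a median of the mean FPKM of both stages of 3.62, against 16.8 for the genes. With loci listed at 0 at either stage left out, 164 of 1741 were higher (9.42%) and 147 lower (8.44%). XLOC_003905 had 120 FPKM at S7 and 4.13 FPKM at S6 (log2 change 4.56), and XLOC_023037 had 248 FPKM at S7 and 16.2 FPKM at S6 (3.85). On the lower side, XLOC_003791 had 8.88 FPKM at S7 and 129 FPKM at S6 (-3.72), and XLOC_026923 had 4.75 FPKM at S7 and 68.6 FPKM at S6 (-3.60). The highest of these loci at S7 was XLOC_031210, with 3170 FPKM at S7 and 1854 FPKM at S6 (0.77). What these loci encode was not analysed here, and these loci were named after their values were seen.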

How the results depend on the processing

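The 310 higher and 799 lower genes became 483 and 1222 with a pseudocount of 0.1 FPKM, 511 and 1272 with 0.01 FPKM, and 203 and 427 at 10 FPKM or more in either stage. Scaling to the same sum over all genes gave 173 higher and 667 lower genes. With the same sum over genes above 0 at both stages, chosen after seeing the data, 832 were higher and 510 lower, and of the 6 lists 1 had more lower than higher genes, against 5 on the deposited scale. This scaling moved the median of all genes to 0.25. In the other alternatives both counts stayed within 1.5 times. Of 726 pairs of a named gene and an alternative, 715 kept the call, 11 crossed the 2-fold limit and 0 reversed. With a pseudocount of 0.1 FPKM the cell growth list had 8 higher and 12 lower genes, the differentiation list 20 and 47, and the cell cycle list 9 and 10. No paired analysis was possible because the replicates of each stage were deposited as 1 merged value, and the planned fits without each replicate were not run for the same reason. Depth is unknown, so the precision of low values is unknown.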

Other observations

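The 1661 loci that join several gene identifiers were left out of the gene values, and 1464 of them were at 1 FPKM or more at S7 or S6. At S7, 42 of the 1464 (2.87%) were at least 2-fold higher than at S6 and 66 (4.51%) at least 2-fold lower.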
